A study of Mus musculus with 9 samples.

Results

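The 8 CXC chemokine ligands examined here were Cxcl1, Cxcl2, Cxcl3, Cxcl9, Cxcl10, Cxcl13, Cxcl14 and Cxcl16. They were taken by gene symbol from the 23238 symbols counted in sorted monocytes of a mouse model of neuromyelitis optica (NMO). No rule on their values was used, but earlier results of these data were known when the set was chosen. Of the 8 ligands, 7 had a count in at least 1 library and 6 had enough counts to be tested. The study asked how monocytes that enter the brain lesion differ from those that stay in blood. Monocytes were sorted on day 1 as CD45+CD11b+P2ry12-Ly6C+Ly6G- cells from wild-type (WT) female C57BL/6N mice of 12 weeks, and their RNA was read with QuantSeq, a method that sequences the 3ʹ end of each transcript. The 9 libraries formed 3 groups of 3, with monocytes from the blood of Normal mice (Blood_Normal), from the blood of NMO mice (Blood_NMO) and from the brain of NMO mice (Brain_NMO). NMO mice had received NMO-IgG, the patient autoantibody, with human complement into the striatum on 1 side. Each library was a pool of 5 mice, so the spread between libraries is the spread between pools. No injection is described for the Normal mice, and no group with a control antibody was analysed here, so that the injection itself and the antibody cannot be told apart. Blood cells were prepared over a density gradient and brain cells from dissociated tissue, and tissue and preparation cannot be told apart either.

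CXC chemokines are small secreted proteins that guide leukocytes along a gradient by binding G protein-coupled CXC receptors. Those that carry an ELR motif before the first cysteines, such as Cxcl1, Cxcl2 and Cxcl3, attract neutrophils through Cxcr2, and myeloid cells release them soon after NF-kB is activated. Cxcl9 and Cxcl10 lack that motif, are induced by interferons and attract activated T cells and NK cells through Cxcr3, while Cxcl13 and Cxcl14 are known for homeostatic roles and Cxcl16 is made as a membrane-bound protein.

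Library totals ranged from 7584649 to 10419647 counts. A count of 3 was used as the floor of a library, which corresponded to between 0.273 and 0.432 CPM, the counts scaled to the library's normalized size. The libraries differed in how many genes they held, from 4567 genes with a count in Blood_NMO library 3 to 11556 in Blood_NMO library 1. In Blood_NMO library 3, 26.4% of the genes that averaged at least 50 CPM in the other 8 libraries were at or under the floor, in Brain_NMO library 2 the share was 12.5%, and in the other 7 libraries it was at most 3.51%. Results on the ligands are therefore also given without these 2 libraries. All 10 monocyte markers on the list were above the floor in every library except Blood_NMO library 3, where 8 were, and their summed level ranged from 3840 to 7080 CPM in blood and from 4400 to 7390 CPM in brain. Within the list the genes moved in opposite directions. In Brain_NMO against Blood_NMO, 6 of the 10 were higher and 3 lower without overlap of libraries, beside 12.3% of all genes in either direction. Ccr2 averaged 1070 CPM in Brain_NMO and 483 CPM in Blood_NMO, and Ptprc 735 and 1610 CPM. Against both blood groups, 1 (Spn, lower in brain) passed an adjusted p of 0.05 in edgeR (0.0423), beside 0.435% of all genes. Neutrophil markers, which the Ly6G gate should remove, summed to between 84.7 and 316 CPM in blood and to 444, 1820 and 1140 CPM in the 3 brain libraries. S100a8 led them in brain, at 148, 813 and 390 CPM, while Retnlg, another neutrophil gene, was at 0 in all 3 brain libraries and at 16.9 to 125 CPM in 5 of the 6 blood libraries. Of the 8 neutrophil markers tested, 6 had a higher fitted level in Brain_NMO than in Blood_NMO and 2 a lower one (0 called, beside 0.247% of all genes). Ngp, among the higher ones, averaged 135 CPM in Brain_NMO and 2.57 CPM in Blood_NMO. The part of neutrophil transcripts in the ligand values was not tested.

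Cxcl2 supplied most of the ligand reads in every library that had any. The summed level of the 8 ligands was 2740, 1400 and 77.3 CPM in the 3 Blood_Normal libraries, 2070, 2130 and 0 CPM in Blood_NMO, and 434, 1130 and 1060 CPM in Brain_NMO. The total was thus lowest in the third library of each blood group, and Blood_NMO library 3 held no read of any of the 8. The 3 brain libraries lay between those low libraries and the other 4 blood libraries. Because these are bulk samples, fewer cells making a transcript and less of it per cell cannot be told apart.

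**Figure D1:**
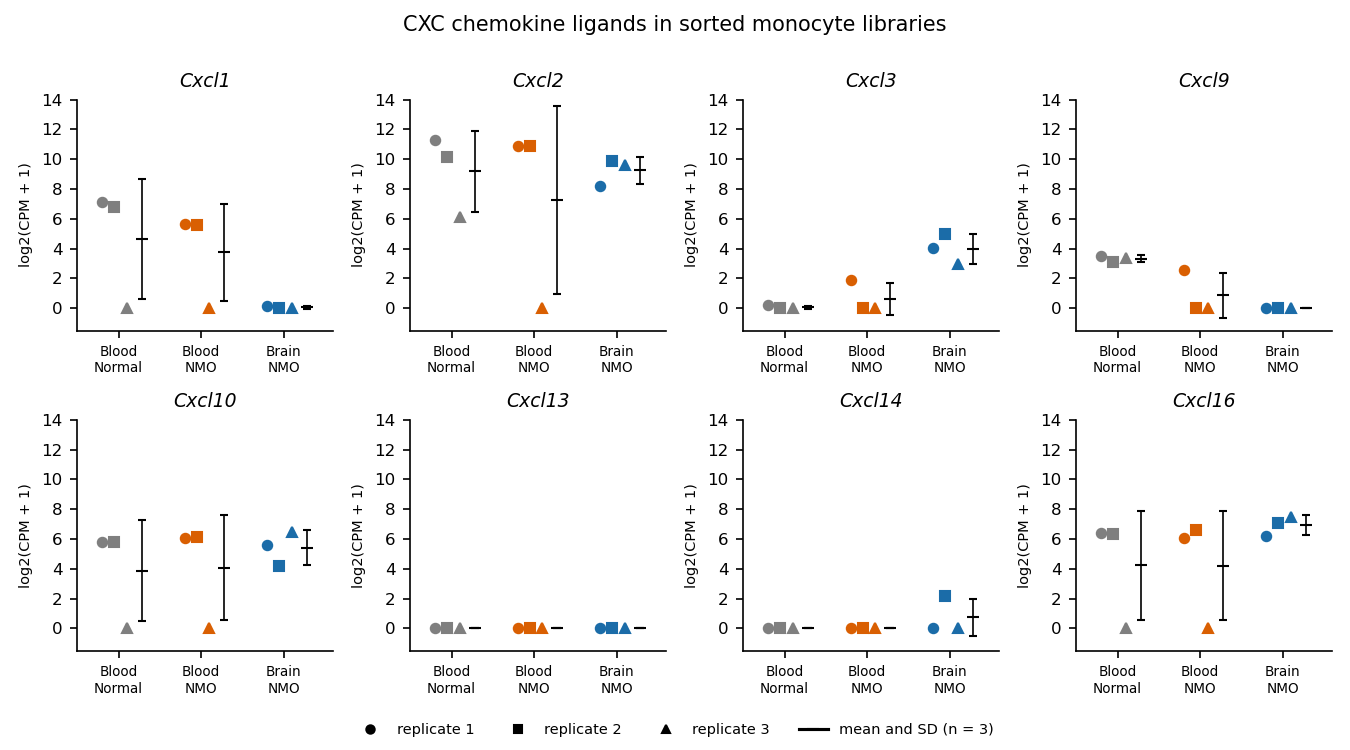
Level of each of the 8 CXC ligands in the 9 libraries, on a log2(CPM + 1) axis, with 1 point per library, its shape giving the replicate number, and the mean and SD of each group (n = 3) beside the points. Cxcl1 and Cxcl9 lie at or near 0 in Brain_NMO, Cxcl3 is above every blood library in all 3 brain libraries, and the third library of each blood group lies at 0 for Cxcl1, Cxcl10 and Cxcl16.

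Cxcl1, Cxcl2 and Cxcl3, the ELR-bearing neutrophil attractants, are neighbours on chromosome 5 (GRCm38/mm10, GENCODE M21). Cxcl3 lies at chr5:90786103-90789600, Cxcl1 at chr5:90891241-90893115 and Cxcl2 at chr5:90903871-90905938, all on the plus strand, with 10755 bases between Cxcl1 and Cxcl2. The last 500 bases of their transcripts, where 3ʹ reads fall, shared no exact run of 25 bases with a transcript of any other gene. The 250 bases before each start (RefSeq, GRCm38.p6) are shown because these 3 ligands differed in the brain libraries while their promoters share a motif. Capitals mark kappaB motifs, the NF-kB consensus, searched on both strands, and the letters TATAAA, searched on the gene's strand.
Cxcl1 (chr5:90890995-90891244, plus strand): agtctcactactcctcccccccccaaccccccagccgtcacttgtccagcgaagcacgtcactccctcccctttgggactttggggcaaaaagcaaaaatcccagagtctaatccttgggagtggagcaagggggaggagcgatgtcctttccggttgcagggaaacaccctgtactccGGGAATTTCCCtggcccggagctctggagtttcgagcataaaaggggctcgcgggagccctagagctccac
Cxcl2 (chr5:90903649-90903898, plus strand): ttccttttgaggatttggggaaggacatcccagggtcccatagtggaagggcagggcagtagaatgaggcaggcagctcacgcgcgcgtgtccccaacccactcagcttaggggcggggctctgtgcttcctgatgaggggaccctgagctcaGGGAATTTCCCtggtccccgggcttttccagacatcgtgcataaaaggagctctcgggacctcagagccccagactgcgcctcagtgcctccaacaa
Cxcl3 (chr5:90785851-90786100, plus strand): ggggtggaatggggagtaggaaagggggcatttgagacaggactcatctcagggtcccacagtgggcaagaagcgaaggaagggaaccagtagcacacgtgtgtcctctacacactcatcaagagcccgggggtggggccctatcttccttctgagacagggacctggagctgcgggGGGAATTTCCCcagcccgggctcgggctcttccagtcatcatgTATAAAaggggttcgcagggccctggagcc
The 3 promoters hold the same 11-letter run GGGAATTTCCC, read by the kappaB consensus as 2 overlapping matches. The run begins 71 bases before the RefSeq start in Cxcl1, 97 in Cxcl2 and 73 in Cxcl3. RefSeq and GENCODE starts differ, and the Cxcl1 and Cxcl2 windows end past the GENCODE starts given above, so these distances depend on the annotation. A kappaB match was present in 3.9% of the 32851 promoters of the same length, and TATAAA, found here in Cxcl3, in 7.59%. A match describes the letters and is no evidence of binding in these cells.

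Cxcl1 was close to absent from the brain libraries. Its level was 137, 111 and 0 CPM in Blood_Normal, 49.0, 46.8 and 0 CPM in Blood_NMO and 0.113, 0 and 0 CPM in Brain_NMO, where the first value was 1 read. In the 4 blood libraries that held it, Cxcl1 had at least 350 reads, and the 2 Blood_NMO values were both below the 2 Blood_Normal values. The groups still overlapped because of the third library of each blood group.

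The pooled Cxcl1 reads of Brain_NMO (1) were 839-fold lower than those of Blood_NMO (780), with a 95% exact binomial interval from 150 to 33200 that covers counting error only, and 2240-fold lower than those of Blood_Normal (1999), with an interval from 402 to 88700. In edgeR's quasi-likelihood fit over all 10107 genes tested, the log2 fold change of Cxcl1 in Brain_NMO against Blood_NMO was -9.34 (SE 3.16, unadjusted p = 0.0104, adjusted p = 0.69), a size that depends on the prior count. The SE given with edgeR fold changes is approximate, the absolute log2 fold change divided by the square root of the F statistic. It depends on the prior count too. Against Blood_Normal it was -10.70 (SE 3.31, adjusted p = 0.506 in edgeR). The adjusted p against Blood_NMO ranged from 0.0053 to 0.982 over the alternatives, and it passed the threshold with DESeq2 (0.0053) and without the filter on low counts (0.0282). Without the 2 sparsest libraries the log2 fold change was -9.45 (edgeR adjusted p = 0.328). The exact permutation test of the 3 brain against the 6 blood libraries gave a difference of -4.14 in mean log2(CPM + 1) (two-sided p = 0.167).

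Between the blood groups Cxcl1 averaged 82.5 ± 72.6 CPM in Blood_Normal and 31.9 ± 27.7 CPM in Blood_NMO (SD, n = 3), which is 2.58-fold lower in Blood_NMO. This difference was smaller than the spread between libraries, with a log2 fold change of -1.37 (SE 2.20, edgeR adjusted p = 1).

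Cxcl2, also known as MIP-2, was the most abundant of the 8. It stood at 2460, 1150 and 68.3 CPM in Blood_Normal, 1880, 1920 and 0 CPM in Blood_NMO and 297, 944 and 784 CPM in Brain_NMO. The 3 brain libraries were lower than libraries 1 and 2 of each blood group and higher than library 3 of each. Its group means were 1220 ± 1200, 1270 ± 1100 and 675 ± 337 CPM (SD, n = 3), so the brain mean was 1.88-fold below that of Blood_NMO. The log2 fold change was -0.91 (SE 1.55, edgeR adjusted p = 1), within the spread. The mean of log2(CPM + 1) was instead 1.02 higher in brain than in blood (exact permutation p = 0.786), and it was 0.625 lower without Blood_NMO library 3 (difference -0.625, exact p = 0.714), so 1 library set the direction.

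Cxcl3 had the opposite pattern to Cxcl1. It had 1, 0 and 0 reads in Blood_Normal, 19, 0 and 0 in Blood_NMO and 135, 316 and 69 in Brain_NMO, or 15.3, 30.1 and 6.86 CPM in the brain libraries against at most 2.66 CPM in any blood library. All 3 brain libraries were above all 6 blood libraries, and 5 of the 6 blood libraries were at or under the floor. The share of all genes separated in this way was not computed. For Brain_NMO against Blood_NMO alone, 12.3% of all genes tested did not overlap, in either direction.

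The mean of Cxcl3 was 17.4 ± 11.7 CPM in Brain_NMO and 0.887 ± 1.54 CPM in Blood_NMO (SD, n = 3), a 19.6-fold difference, and the pooled reads gave 25.4-fold with an exact interval from 16.1 to 42.6 for counting error. Pooled reads were 463-fold higher in Brain_NMO than in Blood_Normal (520 against 1 read, interval 82.8 to 18300). The exact permutation test of brain against all blood libraries gave a difference of 3.64 in mean log2(CPM + 1) with p = 0.0119, the smallest p that 84 arrangements can give, for 1 of 7 ligands tested this way and without adjustment. It was 3.57 without Blood_NMO library 3 (exact p = 0.0179). In edgeR the log2 fold change against both blood groups was 6.24 (SE 2.81, unadjusted p = 0.0438, adjusted p = 0.618), and against Blood_NMO alone 4.28 (SE 3.49, adjusted p = 1), so that the result does not pass adjustment over all genes.

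Within the reads of Cxcl1, Cxcl2 and Cxcl3 the composition differed between tissues. QuantSeq reads come from the transcript's end, so that a share of reads is a share of transcripts sampled there and was not divided by length. Cxcl1 made up 5.26% (95% exact interval 4.94 to 5.60) and 8.83% (8.32 to 9.35) of these reads in the first 2 Blood_Normal libraries and 2.54% (2.28 to 2.82) and 2.38% (2.16 to 2.61) in the first 2 Blood_NMO libraries. In Blood_Normal library 3 it was 0 of 668 reads, which allows a share of up to 0.449% and lies below both Blood_NMO values, so that the blood groups overlapped. In Brain_NMO the Cxcl1 share was 0.0362% in library 1 and 0 of 10236 and 0 of 7949 reads in libraries 2 and 3, which allows a share of up to 0.0293% and 0.0377%. The Cxcl3 share was 4.88%, 3.09% and 0.868% in Brain_NMO and at most 0.138% in 4 blood libraries, with 0 of 668 reads in Blood_Normal library 3.

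Cxcl9 and Cxcl10, the interferon-inducible ligands, also lie beside each other on chromosome 5, at chr5:92321347-92328079 and chr5:92346638-92348889 on the minus strand, 18558 bases apart. Cxcl10 overlaps Art3 on the plus strand, and whether the counting used strand is not given in the sources used here. Art3 itself had 32 reads in Blood_Normal library 1, 90 in Blood_NMO library 1 and none in the other 7 libraries. The Cxcl10 promoter is shown because it holds both motif classes, kappaB and ISRE (GAAANNGAAA, the interferon-stimulated response element, searched on both strands), in capitals.
Cxcl10 (chr5:92348890-92349139, minus strand): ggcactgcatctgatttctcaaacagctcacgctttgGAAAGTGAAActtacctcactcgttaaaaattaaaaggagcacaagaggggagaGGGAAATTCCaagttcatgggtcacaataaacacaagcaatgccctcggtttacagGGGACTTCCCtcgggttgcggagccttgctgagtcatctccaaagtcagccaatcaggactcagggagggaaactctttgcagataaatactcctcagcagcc
It holds 2 kappaB matches, beginning 159 and 103 bases before the start, and 1 ISRE match at 213 bases. An ISRE match occurred in 2.98% of the 32851 promoters. The Cxcl9 promoter held neither in this window.

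Cxcl9, also called MIG, was measured at 10.5, 7.40 and 9.09 CPM in Blood_Normal, at 4.90, 0 and 0 CPM in Blood_NMO and at 0 in all 3 Brain_NMO libraries. It was the most even of the ligands with reads in Blood_Normal, where its mean was 9 ± 1.55 CPM (SD, n = 3), and the only ligand besides Cxcl2 with reads in Blood_Normal library 3. The Blood_NMO libraries did not overlap with the Blood_Normal libraries, and their mean, 1.63 ± 2.83 CPM, was 5.51-fold lower. In Brain_NMO it was at least 29.2-fold lower than in Blood_Normal, counted against the floor of 3 reads per library. Against the mean of Blood_NMO it was at least 5.31-fold lower, but that mean came from library 1 alone. Blood_NMO libraries 2 and 3 were at 0 like the brain libraries. In edgeR the log2 fold change was -9.38 for Brain_NMO against Blood_Normal (SE 4.21, unadjusted p = 0.046, adjusted p = 0.708) and -2.45 for Blood_NMO against Blood_Normal (SE 3.39, adjusted p = 1). The exact permutation test of brain against blood gave -2.08 (p = 0.167).

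Cxcl10, also called IP-10, was present in both tissues. Its level was 55.2, 55.9 and 0 CPM in Blood_Normal, 67.5, 69.3 and 0 CPM in Blood_NMO and 47.7, 17.2 and 88.3 CPM in Brain_NMO. The first 2 libraries of each blood group were close to each other, and the brain values spread around them. The means were 37.1 ± 32.1, 45.6 ± 39.5 and 51.1 ± 35.7 CPM (SD, n = 3), and the log2 fold change of Brain_NMO against Blood_NMO was 0.16 (SE 2.02, edgeR adjusted p = 1). The difference in mean log2(CPM + 1) between brain and blood was 1.45 (exact permutation p = 0.512). No difference was detectable at this spread, and the fitted direction depended on single libraries, with a log2 fold change of -0.41 against Blood_NMO without Blood_NMO library 3 and of -0.48 without Brain_NMO library 3, and it was 4.13 with the replicate number as a block.

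Cxcl13, known for guiding B cells, lies at chr5:95956951-95961068 and had 0 reads in all 9 libraries, which allows at most between 0.273 and 0.432 CPM per library. Cxcl14, at chr13:56288643-56296551, had 38 reads (3.61 CPM) in Brain_NMO library 2 and none in the other 8 libraries, and 0.735 as its difference in mean log2(CPM + 1) between brain and blood (exact permutation p = 0.333). Neither had enough counts to enter the fit across genes.

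Cxcl16, the membrane-bound ligand of Cxcr6, which metalloproteases release from the cell surface, lies on chromosome 11 at chr11:70453983-70459984 and overlaps Zmynd15 on the other strand, for which the files list no read in any brain library and at most 114 reads in a blood library. Its level was 83.7, 78.2 and 0 CPM in Blood_Normal, 65.1, 96.3 and 0 CPM in Blood_NMO and 74.2, 135 and 180 CPM in Brain_NMO. Brain libraries 2 and 3 were above every blood library, and brain library 1 was within the blood range. The means were 54.0 ± 46.8, 53.8 ± 49.1 and 130 ± 53.3 CPM (SD, n = 3), 2.41-fold higher in Brain_NMO than in Blood_NMO. The log2 fold change was 1.27 (SE 1.83, edgeR adjusted p = 1). It was 0.67 without the 2 sparsest libraries, 2.01 without Blood_NMO library 2 and 5.19 with the replicate number as a block. The difference in mean log2(CPM + 1) was 2.71 (exact permutation p = 0.131).

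As a share of the reads of all 8 ligands, Cxcl16 was more distinct than by level. It was 17.1%, 11.9% and 17.0% in Brain_NMO, against 3.05%, 5.59% and 0% in Blood_Normal and 3.15% and 4.52% in the 2 Blood_NMO libraries with reads. All 3 brain libraries were above all 5 blood libraries. The mean share was 15.3 ± 2.95% in brain (SD, n = 3) and 3.26 ± 2.10% in blood (SD, n = 5), a difference of 12.1 percentage points (exact permutation p = 0.0179, the smallest that 56 arrangements can give). Cxcl3 was also higher as a share, with 2.27 ± 1.47% in brain (n = 3) and 0.0268 ± 0.057% in blood (n = 5), a difference of 2.25 points (exact p = 0.0179). Cxcl2 was lower, with 75.3 ± 7.66% in brain (n = 3) and 88.1 ± 3.58% in blood (n = 5), a difference of -12.8 points (exact p = 0.0357). Of the other ligands, Cxcl1 and Cxcl10 gave an exact p of 0.107 each, Cxcl14 gave 0.375 and Cxcl9 gave 0.446. These 7 tests are unadjusted, were added after seeing the data, and are not independent of each other because shares sum to the whole. When each of these 8 libraries was left out in turn, the difference stayed between 11.2 and 13.8 points for Cxcl16 and between 1.63 and 3.06 points for Cxcl3, each time at the smallest p that the remaining libraries allow (0.0286 or 0.0476), whereas the p of Cxcl2 rose to between 0.0857 and 0.0952 without Blood_Normal library 1 or 3, Brain_NMO library 1 or 3, or Blood_NMO library 1 or 2.

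**Figure D2:**
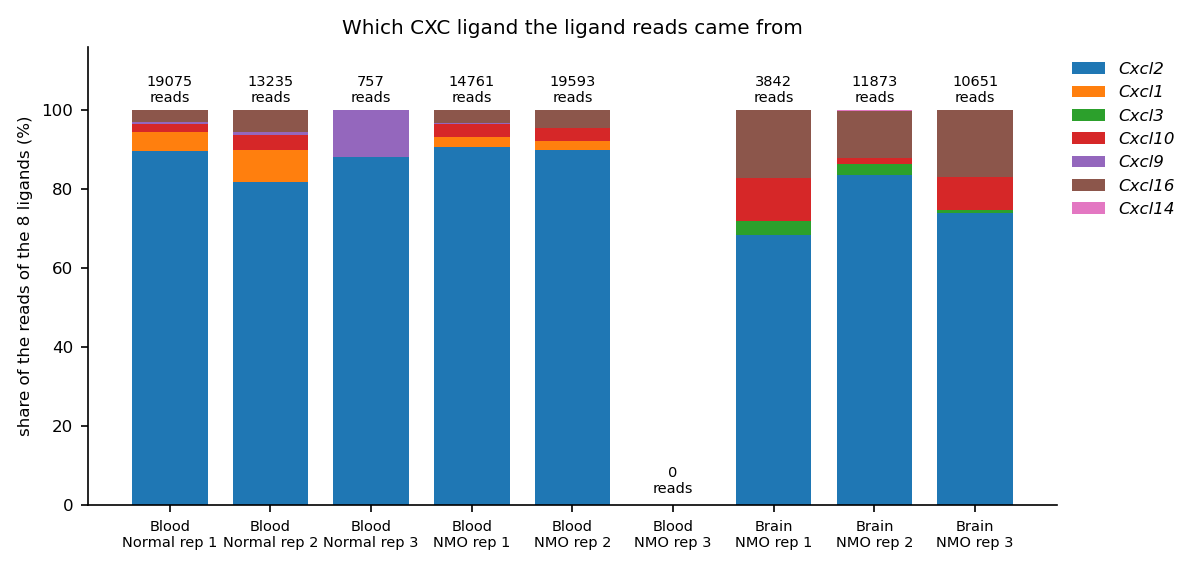
Share of the reads of the 8 CXC ligands that came from each ligand, in percent, 1 bar per library, with the number of ligand reads above each bar. Cxcl2 made up 68.4% to 90.8% of each bar, Cxcl16 filled 11.9% to 17.1% in Brain_NMO and at most 5.59% in blood, and Blood_NMO replicate 3 had 0 ligand reads.

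Across the 3 groups, the order of mean levels was Blood_Normal, Blood_NMO, Brain_NMO for Cxcl1 and Cxcl9, Brain_NMO, Blood_NMO, Blood_Normal for Cxcl3 and Cxcl10, Brain_NMO, Blood_Normal, Blood_NMO for Cxcl16, and Blood_NMO, Blood_Normal, Brain_NMO for Cxcl2. Neighbours in that order overlapped in every case except Cxcl3, where Brain_NMO stood apart from Blood_NMO, and Cxcl9, where Blood_Normal stood apart from Blood_NMO.

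With the filter on low counts, no ligand passed an adjusted p of 0.05 in edgeR in any of the comparisons. Without that filter 1 (Cxcl1) passed it in each of the 3 comparisons with Brain_NMO. Of the 14442 genes tested without the filter, 0.762% passed against Blood_NMO, 0.796% against Blood_Normal and 1.25% against both blood groups. The counts that follow are with the filter. In Brain_NMO against Blood_NMO, 0 of the 6 tested were called, beside 0.247% of all genes tested, and 1 (Cxcl1) was called at the study's threshold of an unadjusted p under 0.05 with a fold change of 1.2, beside 5.32% of all genes. The libraries of the groups did not overlap for 1 of the 6 (Cxcl3), beside 12.3% of all genes. In Blood_NMO against Blood_Normal, 0 were called, beside 0% of all genes (0 of 10107), 0 at the unadjusted threshold beside 0.712%, and 1 of the 6 (Cxcl9) did not overlap, beside 6.8%. In Brain_NMO against Blood_Normal, 0 were called beside 0.247%, and 2 (Cxcl1 and Cxcl9) at the unadjusted threshold beside 5.82%. Against both blood groups, 0 were called beside 0.435%, and 2 (Cxcl1 and Cxcl3) at the unadjusted threshold beside 6.89%. Without the 2 sparsest libraries the counts at an adjusted p of 0.05 were again 0, and the log2 fold changes of Brain_NMO against Blood_NMO were -1.80 for Cxcl2, 3.06 for Cxcl3, -7.43 for Cxcl9 and 0.0068 for Cxcl10 (edgeR adjusted p from 0.736 to 1). The comparisons share libraries and are not independent of each other. DESeq2 called 1 of the 6 (Cxcl1) in each of the 3 comparisons with Brain_NMO and 0 in Blood_NMO against Blood_Normal, beside 3.5% of all genes in Brain_NMO against Blood_NMO, 3.82% against Blood_Normal, 5.16% against both blood groups and 0.719% (69 genes) in Blood_NMO against Blood_Normal. The median log2 fold change of the 6 ligands was -0.37 in Brain_NMO against Blood_NMO, where that of all genes tested was 0.05, and 0.02 in Blood_NMO against Blood_Normal, where that of all genes was -0.16.

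**Figure D3:**
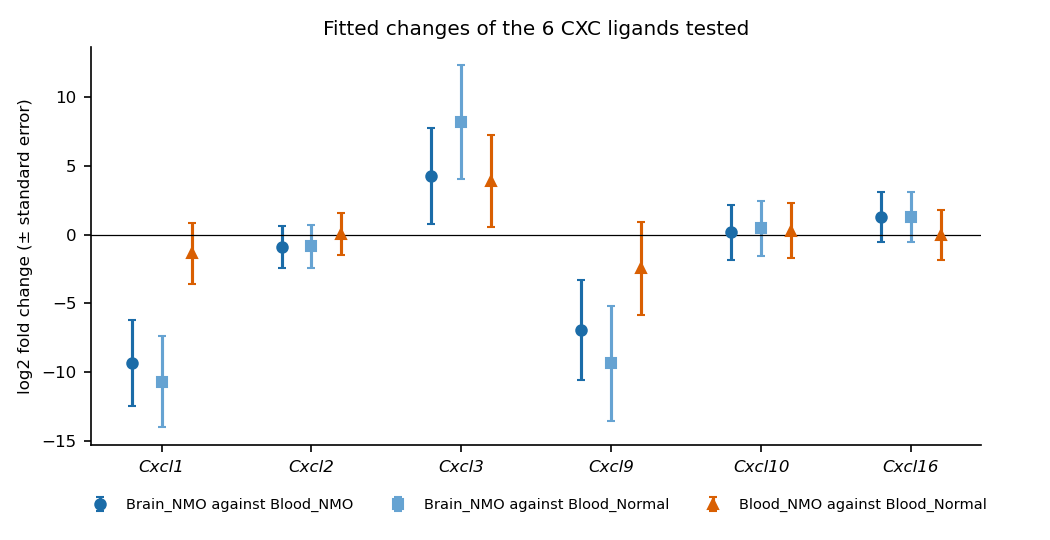
Log2 fold change with an approximate standard error for the 6 CXC ligands tested, from the edgeR fit over all 9 libraries, for Brain_NMO against Blood_NMO, Brain_NMO against Blood_Normal and Blood_NMO against Blood_Normal. The standard error is the absolute log2 fold change divided by the square root of the F statistic. Cxcl1 and Cxcl9 lie far below 0 and Cxcl3 above 0 in the 2 comparisons with Brain_NMO, with standard errors of 3.16 to 4.21, and Cxcl2, Cxcl10 and Cxcl16 lie within 1.27 of 0.

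The ligands did not vary as a single block over the 9 libraries. The Pearson correlation of log2(CPM + 1) was 0.954 for Cxcl10 and Cxcl16, 0.855 for Cxcl2 and Cxcl10 and 0.853 for Cxcl2 and Cxcl16, and it was -0.509 for Cxcl1 and Cxcl3 and -0.53 for Cxcl3 and Cxcl9. Without Blood_NMO library 3, in which all ligands were at 0, these were 0.92, 0.822, 0.794, -0.665 and -0.686 over 8 libraries. They are descriptions of libraries that share the same low samples and depth.

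Among genes averaging at least 50 CPM, those most like each ligand over the 9 libraries were found by the same correlation. For Cxcl1 they were Nfkbia (r = 0.957), Ccnl1 (0.944) and Irf1 (0.94), and for Cxcl2 they were Icam1 (0.99), Zc3h12a (0.987) and Ccl3 (0.983). Nfkbia encodes the inhibitor of NF-kB, Icam1 an adhesion molecule, Zc3h12a an RNase that degrades inflammatory transcripts, and Ccl3 a CC chemokine. Icam1, which stood at 164, 136 and 16.4 CPM in Blood_Normal, 111, 132 and 0 CPM in Blood_NMO and 60.8, 64.3 and 70.3 CPM in Brain_NMO, was low in the same blood libraries as Cxcl2. For Cxcl3 they were Spp1 (0.949), Psmd3 (0.94) and AA467197 (0.939), and Spp1, the secreted phosphoprotein osteopontin, was at 0 in every blood library but Blood_NMO library 1 (10.9 CPM) and at 178, 148 and 286 CPM in Brain_NMO. For Cxcl9 the likeness was weaker, with Sept1 (0.829), Ezr (0.823) and Pabpc1 (0.82). For Cxcl10 they were Mpp1 (0.982), Rexo2 (0.979) and Zmat2 (0.973), and for Cxcl16 Hilpda (0.991), Hk2 (0.99) and Clec4d (0.988). The genes named for Cxcl10 and Cxcl16 were at no more than 1.23 CPM in library 3 of each blood group, where both ligands were at 0. For each ligand the genes named were the top 3 of 2921 or 2922 candidates. These correlations were not computed without the low libraries, and shared regulation was not tested. Hk2, a hexokinase, stood at 153, 342 and 205 CPM in Brain_NMO and at no more than 104 CPM in any blood library.

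Of the 7 other CXC ligands, Pf4 (Cxcl4) and Ppbp (Cxcl7), which platelets store in their granules, had reads in all 6 blood libraries. Ppbp was at 531, 177 and 22.8 CPM in Blood_Normal, at 335, 174 and 105 CPM in Blood_NMO and at 0, 0.0951 and 0 CPM in Brain_NMO. It was lower in Brain_NMO than in Blood_NMO, with a log2 fold change of -12.10 (SE 1.55, edgeR adjusted p = 0.00311), and pooled reads gave 5540-fold with an exact interval from 994 to 219000. Pf4 was at 542, 277 and 126 CPM in Blood_NMO and at 22.6, 0 and 0 CPM in Brain_NMO (log2 fold change -5.39, SE 1.79, edgeR adjusted p = 0.66). Platelet markers as a list, of which Pf4 and Ppbp are members, summed to between 521 and 3250 CPM in blood and to 33.2, 39.8 and 0 CPM in brain, with 6 of its 8 genes at or under the floor in the first 2 brain libraries and all 8 in the third. Cxcl12 was at 94.0, 0 and 751 CPM in Brain_NMO, at 3.92 CPM in Blood_NMO library 1 and at 0 in the other 5 blood libraries (log2 fold change 7.77 against Blood_NMO, SE 2.73, edgeR adjusted p = 0.802). Cxcl11 was at 20.5, 0 and 4.08 CPM in Brain_NMO and at 0 in blood, and Cxcl5, Cxcl15 and Cxcl17 were at 0 throughout.

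**Figure D4:**
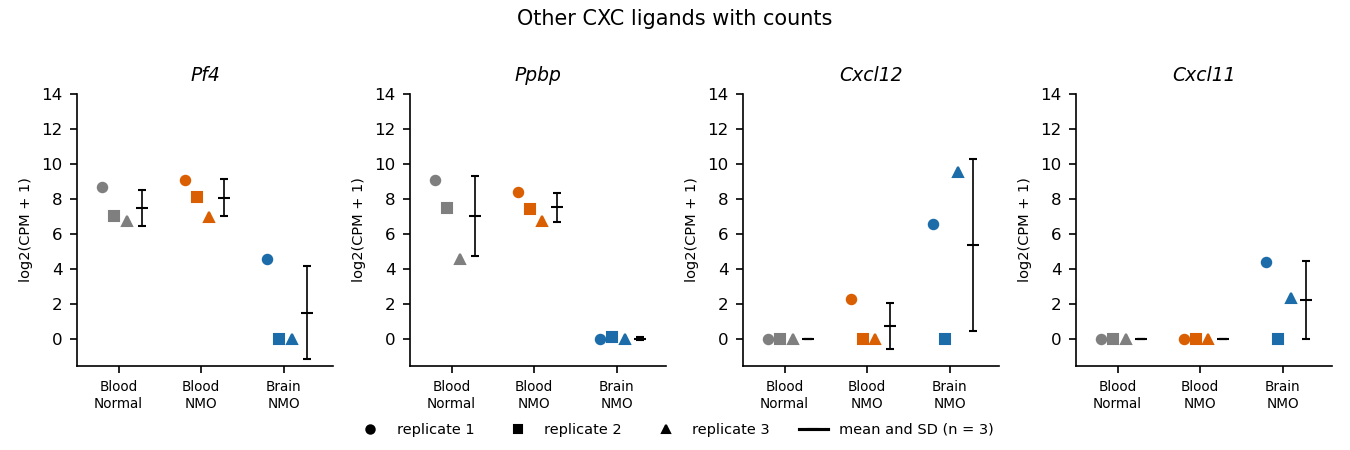
Level of Pf4, Ppbp, Cxcl12 and Cxcl11 in the 9 libraries on a log2(CPM + 1) axis, with 1 point per library and the mean and SD of each group (n = 3). Pf4 and Ppbp are high in all 6 blood libraries and at or near 0 in Brain_NMO apart from Pf4 in library 1 (22.6 CPM), and Cxcl12 and Cxcl11 appear in Brain_NMO libraries 1 and 3.

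Among the 8 CXC receptors, 2 were tested and 0 were called in Brain_NMO against Blood_NMO, beside 0.247% of all genes. Cxcr4, the receptor of Cxcl12, was at 148, 124 and 39.9 CPM in Blood_Normal, 183, 124 and 0 CPM in Blood_NMO and 72.2, 130 and 146 CPM in Brain_NMO (log2 fold change 0.18, SE 1.39, edgeR adjusted p = 1). Cxcr2, the receptor of Cxcl1, Cxcl2 and Cxcl3, was at no more than 0.565 CPM in any library, Cxcr6, the receptor of Cxcl16, had reads in Blood_NMO library 2 alone (5.22 CPM), and Cxcr3, the receptor of Cxcl9 and Cxcl10, was at 0 in all 9.

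The 16 regulators of NF-kB and of inflammatory mRNA decay were all tested, and in Brain_NMO against Blood_NMO 0 were called, beside 0.247% of all genes, while 4 were lower at the unadjusted threshold and 0 higher, beside 5.32% of all genes in either direction. Their median log2 fold change was -0.23, where that of all genes was 0.05. Nfkbia stood at 9310, 8190 and 1740 CPM in Blood_Normal, 9080, 8250 and 1420 CPM in Blood_NMO and 1660, 3120 and 1780 CPM in Brain_NMO, so that the third blood libraries were as low as the brain (log2 fold change -1.51, SE 0.61, edgeR adjusted p = 0.802). Tnfaip3, the deubiquitinase A20 that ends NF-kB signalling, was at 599, 608 and 369 CPM in Blood_NMO and at 2.6, 146 and 53.7 CPM in Brain_NMO, without overlap (log2 fold change -2.96, SE 0.92, edgeR adjusted p = 0.534). It was 1 of the 16 without overlap, beside 12.3% of all genes in either direction. Zfp36, which destabilizes the mRNAs of Cxcl1 and other cytokines, was at 389, 280 and 1.82 CPM in Blood_NMO and 383, 285 and 379 CPM in Brain_NMO, with no difference beyond the spread (edgeR adjusted p = 1).

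Of 11 genes of interferon-gamma signalling, 1 fell and 0 rose in Brain_NMO against Blood_NMO at an adjusted p of 0.05 in edgeR, beside 0.247% of all genes in either direction. This was Irf8, a transcription factor of the monocyte lineage that takes part in interferon responses. It was at 1280, 1430 and 1880 CPM in Blood_NMO and at 265, 137 and 192 CPM in Brain_NMO, which is 7.72-fold lower (log2 fold change -2.95, SE 0.34, adjusted p = 0.00183). Ifngr1, a chain of the interferon-gamma receptor, was at 683, 717 and 955 CPM in Blood_NMO and 332, 328 and 229 CPM in Brain_NMO (log2 fold change -1.41, SE 0.35, edgeR adjusted p = 0.209), and Jak1, its kinase, was at 1170, 1160 and 776 CPM against 523, 352 and 406 CPM (log2 fold change -1.28, SE 0.34, edgeR adjusted p = 0.316). Socs3, a feedback inhibitor of cytokine signalling, was at 609, 770 and 68.8 CPM in Blood_NMO and 385, 496 and 349 CPM in Brain_NMO (log2 fold change -0.23, SE 0.72, edgeR adjusted p = 1). Stat2 was at 42.2, 29.8 and 0 CPM against 101, 58.6 and 156 CPM, higher in brain without overlap (log2 fold change 2.13, SE 1.53, edgeR adjusted p = 1). Across the 11 genes, 1 was higher and 4 were lower in brain without overlap, beside 12.3% of all genes in either direction. The median of the list was -0.47. The sheddases of Cxcl16, Adam10 and Adam17, had 0 of 2 called, beside 0.247% of all genes. Adam10 was at 61.8, 45.6 and 49.2 CPM in Blood_NMO and 132, 88.5 and 185 CPM in Brain_NMO, without overlap, beside 12.3% of all genes in either direction (log2 fold change 1.37, SE 0.76, edgeR adjusted p = 0.842).

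Other cell types' markers moved with tissue beside these values. NK cell markers summed to between 1780 and 2680 CPM in blood and to 21.3, 336 and 115 CPM in brain. Of their 6 genes, 1 was called lower in Brain_NMO against Blood_NMO in edgeR (Nkg7, log2 fold change -3.84, SE 0.58, adjusted p = 0.0142), beside 0.247% of all genes in either direction. Microglia markers summed to between 0.0909 and 396 CPM in blood and to between 832 and 976 CPM in brain, led by Cx3cr1, which monocytes also express, while P2ry12, the marker used to gate microglia out, was at 23.7, 69.7 and 9.95 CPM in brain and at up to 43.4 CPM in blood. Fcrls, a microglial gene, was at 52.7, 77.5 and 50.5 CPM in brain and at 0 in all 6 blood libraries. Genes induced by tissue dissociation summed to between 1200 and 9360 CPM in blood and to between 6230 and 13300 CPM in brain, so that the tissues overlapped. Of these 12 genes, 9 had a higher fitted level in Brain_NMO than in Blood_NMO and 3 a lower one (0 called, beside 0.247% of all genes). Against Blood_Normal, 6 were higher and 6 lower. Hspa1a was at 4110, 1050 and 566 CPM in brain and at no more than 51.6 CPM in blood, whereas Junb averaged 848 CPM in Brain_NMO and 1190 CPM in Blood_NMO. B and T cell markers reached at most 97.5 CPM, astrocyte markers 19.9 CPM and fibroblast markers 61.4 CPM in any library. Border macrophage markers, which include Pf4, summed to between 300 and 1250 CPM in blood and to between 382 and 568 CPM in brain. F13a1 and Pf4 had the highest group means of this list in blood. In Brain_NMO F13a1 had the highest, at 321 CPM, and Pf4 averaged 7.54 CPM. A higher fitted level in Brain_NMO than in Blood_NMO was found for 4 of the 6 genes tested (median log2 fold change 2.51, 0 called, beside 0.247% of all genes). Among them were Mrc1, at 25.3, 62.1 and 37 CPM in brain and at most 15.4 CPM in blood, and Ms4a7, at 25.8, 51.9 and 14.5 CPM in brain and at most 6.96 CPM in blood. The part of these cells and of dissociation in the ligand values was not tested.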

How the data were processed

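The data are counts of QuantSeq 3ʹ reads per gene in 9 libraries of sorted mouse monocytes, 3 in each of 3 groups given by the labels. Single-end reads were mapped by the authors to mm10 (Bowtie2), and unique and multiple alignments were counted with bedtools. The deposited values are these raw counts, with a file per library, before the authors' TMM and CPM normalization. Whether reads were assigned by strand is not stated. Tool versions and the annotation are not given in the sources used here. Totals ranged from 7584649 to 10419647 counts, and the ribosomal transcript Rn45s held 28.4% to 43.6% of them.

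Each library listed 23282 entries. A repeated symbol (35 in all) was represented by its highest-count entry, and 23238 symbols remained. Everything else was computed in R 4.3.3 and in Python 3.11.15 with SciPy 1.17.1. CPM were scaled to library totals times their TMM factors. The 10107 genes that passed filterByExpr were fitted with edgeR 4.0.16 (glmQLFit and glmQLFTest) over all 9 libraries, with Benjamini-Hochberg adjustment over all of them. The edgeR test gives no SE, so the SE printed was derived from the log2 fold change and the F statistic and is approximate. Single levels were tested by two-sided exact permutation of log2(CPM + 1), 3 brain against 6 blood libraries, because 3 against 3 cannot give a p below 0.1. Replicates are described as independent pools. Whether blood and brain pools of the same number came from the same mice is not stated, and the main tests treat all 9 libraries as unpaired. P-values measure the spread between these pools. Intervals and floors cover counting error only, since the reads carry no molecular identifiers here. The fits across genes (edgeR, DESeq2 and limma-voom) were run on simulated counts for Brain_NMO against Blood_NMO only, with the outcome not given here. The permutation tests of levels and of shares were not run on simulated counts.

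The members and the gene lists were chosen with earlier results of these data known. The genes named were the 8 ligands, up to 4 genes with the highest mean CPM of each other list, and the 3 genes most correlated with each ligand tested. The remaining CXC ligands and receptors, Stat2, Spn, Ms4a7, Fcrls, Retnlg, Cldn5, Art3 and Zmynd15 fall outside that rule and were named after their values were seen. Gene positions came from GENCODE M21 and promoters from a RefSeq table of GRCm38.p6, in which 7 of the 8 ligands matched. Alternatives were other size factors, filters and samples, a replicate block, DESeq2 1.42.0 and limma-voom (limma 3.58.1). Ly6g and Trbc2 were not analysed here.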

Additional observations from a re-analysis of the deposited data

Results flagged for a closer look

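Reads of Cxcl11 and Cxcl12, which are outside the 8, appeared in brain libraries while all Blood_Normal libraries were at 0. Cxcl11 was at 20.5 CPM in Brain_NMO library 1 and at 4.08 CPM in Brain_NMO library 3. Cxcl12 was at 94.0 CPM in Brain_NMO library 1, at 751 CPM in Brain_NMO library 3 and at 3.92 CPM in Blood_NMO library 1. The endothelial markers Flt1 (87.5, 0 and 554 CPM), Cldn5 (33.0, 0 and 60.0 CPM) and Kdr (27.8, 0 and 97.3 CPM) were present in the same 2 of the 3 brain libraries, whereas Pecam1 (55.6, 82.6 and 29.6 CPM) and Ly6c1 (92.3, 5.9 and 315 CPM) were present in all 3 and also in blood, and the endothelial and mural list summed to 296, 88.5 and 1080 CPM there and to between 53.2 and 202 CPM in blood. Their part in the Cxcl12 and Cxcl11 values was not tested. The groups hold 3 libraries each, too few to test a library as an outlier of its group.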

How the results depend on the processing

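The count of CXC ligands at an adjusted p of 0.05 was 0 in each comparison, and it was 1 (Cxcl1) without an expression filter and with DESeq2 in the 3 comparisons with Brain_NMO. The log2 fold change of Cxcl1 then passed the threshold, at -9.36 and -9.62 against Blood_NMO, -10.70 and -11.00 against Blood_Normal and -10.00 and -10.30 against both. Of all genes tested, 0.762%, 0.796% and 1.25% passed it without the filter in these comparisons in turn, and 3.5%, 3.82% and 5.16% with DESeq2. At the unadjusted threshold the count against Blood_NMO was 2 without a filter and 0 with only the groups compared. Against Blood_Normal it was 1 with the replicate block, 1 without the 2 sparsest libraries (an alternative chosen after seeing the data) and between 1 and 1 when each library was left out. Against both blood groups it was 1 with limma-voom, 1 without the 2 sparsest libraries and between 1 and 2 when each library was left out. Correlations of the deviations from group means ran from -0.0102 to 0.116 for same-numbered libraries and from -0.0957 to 0.0301 for differently numbered ones. Over all genes tested, any pairing by replicate number was weak, and the main fit left it out. Pairing was not tested for the ligands alone, whose summed level was lowest in library 3 of both blood groups. Cxcl1, Cxcl10 and Cxcl16 were at 0 in both of those libraries. With the replicate block the ligands' median log2 fold change moved to 2.65, 2.74 and 2.70 in the comparisons of Brain_NMO with Blood_NMO, Blood_Normal and both, and that of Cxcl10 to 4.13, 4.43 and 4.28 and of Cxcl16 to 5.19, 5.15 and 5.17.

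Directions that turned were those of ligands whose change was within the spread. Cxcl2 turned with the replicate block (1.16 against Blood_NMO, 1.06 against Blood_Normal, 1.11 against both, and -0.10 between the blood groups). With 1 library left out its log2 fold change ranged from -0.51 to 1.06 between the blood groups and from -1.40 to 0.15 for Brain_NMO against Blood_Normal, and its difference in the exact test from -0.625 (without Blood_NMO 3) to 1.63. Cxcl10 turned with limma-voom (-0.18 against Blood_NMO), and with 1 library left out it ranged from -0.48 to 0.61 against Blood_NMO, from -0.28 to 0.89 between the blood groups, from -0.18 to 0.89 against Blood_Normal and from -0.33 to 0.74 against both. Cxcl16 turned between the blood groups with library sizes alone (0.088), no filter (0.0049), limma-voom (1.14) and without the 2 sparsest libraries (0.58), and ranged from -0.73 to 0.58 with 1 library left out. Cxcl1, Cxcl3 and Cxcl9 kept their direction wherever a value could be had. The cause of these turns was not tested. No value was had for Cxcl9 in Brain_NMO against Blood_NMO and Cxcl3 in Blood_NMO against Blood_Normal without Blood_NMO 1, nor for Cxcl14 without Brain_NMO 2. The spread between pools and the third blood libraries limit what these 9 libraries can show.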
